A study of Mus musculus with 15 samples.

Results

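Fatty acid oxidation and the lipid genes controlled by the peroxisome proliferator-activated receptors (PPARs) were followed through RNAseq of mouse bone marrow-derived macrophages (BMDMs) that were polarized with type 2 cytokines. The 48 members were chosen by name for their roles in this metabolism: the PPARs with their partner and coactivators, fatty acid uptake, lipolysis and lipid droplets, fatty acid activation and import into mitochondria, β-oxidation, lipid synthesis, and the uncoupling protein *Ucp2*. They were found by Ensembl identifier among the 53465 genes of the deposited count matrix. All 48 were present, and 46 of them were among the 13938 genes with enough reads to be tested. In the study, BMDMs were grown for 7 days in medium with 10% FBS and 20 ng/ml M-CSF, and then received no cytokine (control), IL-4, IL-4/IL-6, IL-13 or IL-13/IL-6 over 24 h. IL-4 was used at 10 ng/ml, and both IL-13 and IL-6 at 40 ng/ml. IL-6 was given together with IL-4 or IL-13, not after it. The groups are separate libraries, so a change on addition of IL-6 is a difference between groups. By the study's methods, the bone marrow came from mice aged 8 to 12 weeks. All 5 groups shared the same kind of mice and M-CSF. There were 3 libraries in each group, and IL-6 alone was not among the groups analysed here. The comparisons ask how the lipid genes of BMDMs respond to IL-4 and to IL-13, and what the addition of IL-6 to either cytokine changes.

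Fatty acids reach the macrophage through the scavenger receptor CD36 and through lipoprotein lipase, which releases them from circulating triglycerides. Inside the cell they are carried by fatty acid binding proteins, joined to coenzyme A by acyl-CoA synthetases, passed into mitochondria by the carnitine shuttle and shortened there by β-oxidation. PPARs are nuclear receptors that are switched on by fatty acids, bind DNA together with the retinoid X receptor and act on many genes of this route. Macrophages activated by IL-4 or IL-13 are known for fatty acid oxidation and for the use of PPARγ and its coactivator PGC-1β.

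The libraries held 17001352 to 18918686 counted reads each. Levels are given below as CPM, the count as a share of the library's total scaled with the edgeR TMM factor, where every value is 1 library unless an SD is given, and levels of different genes are compared only in FPKM, which divides by gene length. The members took 1.31% to 1.36% of all counts in control, 1.65% to 1.69% with IL-4, 0.887% to 0.909% with IL-4/IL-6, 1.51% to 1.55% with IL-13 and 1.08% to 1.10% with IL-13/IL-6. The rise with IL-4 was carried by *Lpl* (2640 ± 126 CPM in control, 7810 ± 108 with IL-4) and *Cd36* (1293 ± 77.4 and 2965 ± 88.6, SD, n = 3). This share therefore does not describe most members. *Socs3*, a direct target of IL-6 signaling, was at 105 to 143 CPM in the 6 libraries with IL-6 and at 1.03 to 10.2 CPM in the other 9. The macrophage markers summed to 12390 to 21710 CPM in every library, so the labelled cell type was present throughout. Replicates of IL-4/IL-6 differed more than those of other groups (biological coefficient of variation 14.8%, against 4.48% to 10.9%), and its replicate 2 had the lowest scaling factor, 0.898. The labels number the replicates without naming separate mice or cultures, so p-values measure the spread between these libraries.

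Of the promoters in the RefSeq set for GRCm38.p6, which run from 250 bases before to 50 bases after a start site, 43 belonged to 37 of the 48 members. They were searched on both strands for TTC and GAA with 4 bases between them, the spacing that STAT6 (the factor switched on by IL-4 and IL-13) prefers, for TTC and GAA with 3 bases between them, the spacing of STAT3 (switched on by IL-6), and for 2 copies of AGGTCA with 1 base between them, the direct repeat that PPAR and RXR bind. Both TTC patterns read the same on the 2 strands, no member promoter held matches of 2 patterns, and a match is a description of the sequence only. The STAT6 spacing was found in 6.95% of all 32851 promoters and in 1 member promoter, that of *Cd36*, at bases 21 to 30 after the start in that set. This start and the stretch printed for *Cd36* lie inside the annotated gene, downstream of its 5′ end, and no other start of *Cd36* was searched. The STAT3 spacing was found in 8.30% of all promoters and in 4 member promoters, of *Lipe*, *Cpt2*, *Hadha* and *Hadhb*. *Hadha* and *Hadhb* lie head to head, so that their match is 1 shared site read from both strands. This site and the match of *Lipe* overlap annotated exons. The PPAR repeat stood in 0.0396% of all promoters and in 0 of the 43. The matches of *Cd36*, *Cpt2* and the *Hadha* and *Hadhb* pair are shown with 30 bases each, 5′ to 3′, with the match in capitals.
Cd36, chr5:17835857-17835886, minus strand: gtgatgggtcTTCACCAGAAatagaccctt
Cpt2, chr4:107923770-107923799, minus strand: ttctatccagTTCTGTGAAaggaaaagagg
Hadha, chr5:30155117-30155146, minus strand: tagtctcaccTTCAGAGAAatcatcctttc

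The 100 bases before the start site are shown for 4 members that carry the results on uptake, lipolysis and the PPAR partner and whose stretch was clear of annotated exons. CpG pairs are in capitals, because start regions rich in CpG and poor in CpG are the 2 common kinds. *Cd36* had 2 such pairs in its 100 bases, *Lipa* 3 and *Pnpla2* 10. *Rxra* had 2 annotated starts, with 19 pairs before the one shown and 0 before the other (chr2:27709192-27709291, plus strand). Both stretches of *Rxra* lie inside the annotated gene, downstream of its 5′ end. Over the 250 bases before the start, the 43 member promoters held 0 to 40 CpG pairs with a median of 13, against a median of 6 in all 32851 promoters.
Cd36, chr5:17835897-17835996, minus strand: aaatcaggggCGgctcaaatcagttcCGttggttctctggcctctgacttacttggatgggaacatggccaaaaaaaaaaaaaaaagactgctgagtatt
Lipa, chr19:34527475-34527574, minus strand: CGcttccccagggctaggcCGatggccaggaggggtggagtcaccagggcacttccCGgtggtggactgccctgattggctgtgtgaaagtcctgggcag
Pnpla2, chr7:141455088-141455187, plus strand: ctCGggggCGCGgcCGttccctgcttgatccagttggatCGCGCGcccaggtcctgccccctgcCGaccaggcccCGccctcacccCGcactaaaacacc
Rxra, chr2:27677101-27677200, plus strand: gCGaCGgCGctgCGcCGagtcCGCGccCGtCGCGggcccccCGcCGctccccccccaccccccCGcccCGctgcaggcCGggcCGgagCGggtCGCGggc

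Addition of IL-4 or IL-13 raised the genes of fatty acid capture, *Cd36* and *Lpl*, and lowered most other members that moved by a large amount: the carriers *Fabp4* and *Fabp5*, the lipases *Mgll*, *Pnpla2* and *Lipa*, the receptor *Ppard* and its partner *Rxra*, the mitochondrial gatekeeper *Cpt1a* and the peroxisomal oxidase *Acox3*. With edgeR's quasi-likelihood test and Benjamini-Hochberg adjustment over all tested genes, IL-4 over control gave 12 members higher, 22 lower and 12 without a call at an adjusted p under 0.05. Of all 13938 genes, 32.1% were called higher and 35.9% lower in that comparison, so calls in both directions were common among genes at large. IL-13 over control gave 9 members higher, 23 lower and 14 without a call, beside 29.0% and 31.1% of all genes. The median log2 fold change of the members was -0.20 with IL-4 (all tested genes -0.05) and -0.28 with IL-13 (all tested genes -0.02). Among calls with a log2 fold change over 1 in size, 3 members were higher and 10 lower with IL-4 (10.0% and 16.1% of all genes), and 1 was higher and 9 lower with IL-13 (7.74% and 12.6%). Both comparisons use the same 3 control libraries. In bulk RNA, fewer cells of a type and less RNA per cell cannot be told apart.

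In the groups that also had IL-6, the capture genes were closer to control than with IL-4 or IL-13 alone, and *Pparg* was below control. *Ppard* and *Fabp5* were higher there than with IL-4 or IL-13 alone, and *Lipa*, *Mgll*, *Cpt1a* and *Ucp2* were lower still. IL-4/IL-6 over IL-4 gave 9 members higher, 13 lower and 24 without a call, beside 20.7% and 18.7% of all genes, and upper-quartile scaling gave 6 and 15. IL-13/IL-6 over IL-13 gave 12 members higher, 10 lower and 24 without a call, beside 12.1% and 13.5% of all genes, and upper-quartile scaling gave 10 and 13. The median log2 fold change of the members was 0.02 in the first (all genes 0.04) and 0.01 in the second (all genes 0.01), so the medians lay close to that of all genes in both. Calls over 1 in size were 2 higher and 7 lower with IL-4 (4.34% and 7.47% of all genes), and 2 higher and 3 lower with IL-13 (3.06% and 4.19%). 

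**Figure D1:**
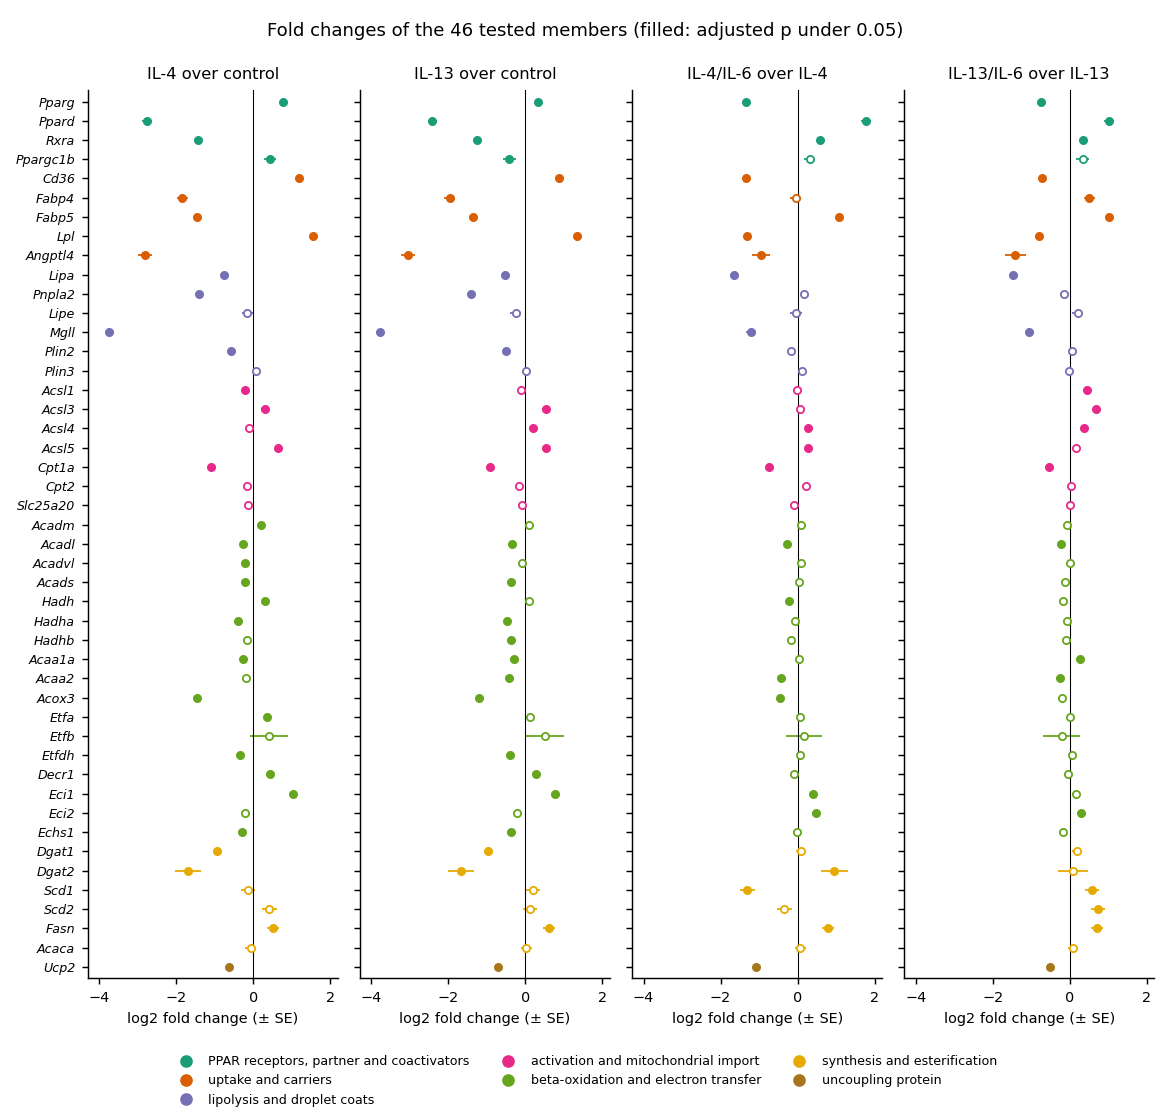
Log2 fold change (± SE, 3 libraries per group) of the 46 tested members, grouped by role in color, in 4 comparisons; filled points have an adjusted p under 0.05, and bars shorter than the point are hidden. The β-oxidation genes sit near 0 except *Acox3* and *Eci1*, whereas *Ppard*, *Mgll* and *Angptl4* lie below -2 in both comparisons with control.

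The cell markers also differed between control and the cytokine groups, and their part in the comparisons with control was not tested. Of the 10 macrophage markers, 3 were higher and 5 lower with IL-4 against control, and 5 were higher and 3 lower with IL-13. Among them *Mertk* fell, with a log2 fold change of -4.10 with IL-4 and -3.29 with IL-13. The 13 markers of granulocytes and their precursors summed to 525 to 615 CPM in control and to 11.9 to 26.9 CPM in the other groups, and 11 of the 12 tested were lower with IL-4 and with IL-13. Markers of stromal cells summed to 17.0 to 21.8 CPM in control and to at most 0.609 CPM elsewhere, with *Lepr* and *Lum* at 3 counts or fewer in every library. B cell markers were at 10.8 to 12.4 CPM in control and 0.567 to 1.66 CPM elsewhere, and those of basophils and mast cells at 14.4 to 16.0 CPM and 0.167 to 2.19 CPM. Dendritic cell markers summed to 22.5 to 25.4 CPM in control, 10.9 to 13.5 CPM with IL-4/IL-6 and at most 2.89 CPM in the other groups. The sum with IL-4/IL-6 was nearly all *Cd209a*, at 11.3 ± 1.04 CPM there and 2.32 ± 0.313 CPM in control (SD, n = 3), and in IL-4/IL-6 over control 1 of the 5 tested dendritic markers was higher and 3 were lower. Megakaryocyte and platelet markers were at 378 to 422 CPM in control, 70.4 to 89.8 CPM with IL-4 or IL-13, and 175 to 422 CPM with IL-6 added. The sums with IL-6 do not describe the list. In IL-4/IL-6 and in IL-13/IL-6 over control, 1 of these 6 markers was higher and 5 were lower (median log2 fold change -6.39 and -5.95). Erythroid markers stayed at or below 1.39 CPM (*Hba-a2* and *Hbb-bt* at 3 counts or fewer) and those of T and NK cells at or below 0.898 CPM (*Cd3e*, *Cd3g*, *Ncr1* and *Trac* at 3 counts or fewer). Adipocyte markers, the cell type best known for many of these lipid genes, summed to at most 1.12 CPM, and *Adrb3*, *Cfd*, *Cidec*, *Lep* and *Plin1* had 3 counts or fewer in every library. Cell cycle genes summed to 1130 to 1300 CPM in control, 1705 to 1780 with IL-4, 1831 to 1959 with IL-13, 750.4 to 868 with IL-4/IL-6 and 1163 to 1222 with IL-13/IL-6. Within that list 2 of 8 genes were higher and 4 lower with IL-4 against control, and 3 were higher and 3 lower with IL-13. *Mcm5* (log2 fold change 2.45 with IL-4) and *Pcna* (1.84) rose while *Mki67* (-1.59) and *Ccnb1* (-1.70) fell. All 8 cell cycle genes were lower in both comparisons that added IL-6, and their part in those results was not tested.

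Of the 3 PPAR genes, *Pparg* was above control with IL-4 or IL-13 alone and below it in the groups that also had IL-6. *Ppard* was lowest with IL-4 or IL-13 alone and closer to control with IL-6 as well, and *Ppara* had too few counts to be tested. *Pparg* (chr6:115360951-115490399, plus strand, GRCm38) encodes PPARγ, the form that dominates in fat cells and in alternatively activated macrophages. It stood at 46.2, 50.8 and 44.0 CPM in the control libraries, 81.9, 74.6 and 83.9 with IL-4, 31.4, 34.1 and 29.0 with IL-4/IL-6, 62.4, 58.6 and 54.7 with IL-13 and 33.5, 35.9 and 34.7 with IL-13/IL-6. IL-4 gave the highest libraries and IL-13 the next, without overlap between them or with control, and the 6 libraries with IL-6 lay below every control library. IL-4 raised *Pparg* 1.71-fold (log2 fold change 0.77 ± 0.0801, adjusted p = 2.22e-07) and IL-13 1.25-fold (0.32 ± 0.0804, adjusted p = 0.00262). The IL-4 libraries were above the IL-13 libraries by 0.45 ± 0.0793 on the log2 scale (adjusted p = 0.000785). IL-6 lowered it over IL-4 (log2 fold change -1.35 ± 0.0822, adjusted p = 5.57e-10) and over IL-13 (-0.75 ± 0.0817, adjusted p = 1.51e-06). Against control the log2 change was -0.58 with IL-4/IL-6 and -0.44 with IL-13/IL-6, both called (adjusted p = 7.76e-06 and 0.00018).

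*Ppard* (chr17:28232700-28301474, plus strand) encodes PPARδ, the broadly expressed form that also responds to fatty acids. Its level was 39.0, 40.0 and 41.3 CPM in the control libraries, 5.99, 6.97 and 4.80 with IL-4, 19.6, 18.7 and 22.8 with IL-4/IL-6, 7.12, 7.09 and 8.29 with IL-13 and 15, 17.0 and 13.9 with IL-13/IL-6. Control was the highest group and IL-4 the lowest, and none of the 5 groups overlapped another. IL-4 lowered *Ppard* to 0.148 of control (-2.76 ± 0.128, adjusted p = 7.14e-12) and IL-13 to 0.188 (-2.41 ± 0.124, adjusted p = 4.02e-11). IL-6 raised it 3.44-fold over IL-4 (1.78 ± 0.130, adjusted p = 5.55e-09) and 2.04-fold over IL-13 (1.03 ± 0.128, adjusted p = 7.92e-06). It remained below control in both, at -0.98 and -1.39 on the log2 scale (adjusted p = 6.91e-07 and 1.43e-08). In FPKM, *Ppard* was at 9.04 ± 0.271 and *Pparg* at 16.6 ± 1.10 in control (SD, n = 3), and at 1.29 ± 0.243 and 27.4 ± 1.56 with IL-4, so the gap between the 2 receptors widened under IL-4. *Ppara*, the form of liver and muscle, had at most 1 count in any library and was not tested.

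*Rxra* (chr2:27676440-27762957, plus strand) encodes the retinoid X receptor α, the common DNA-binding partner of the PPARs. It was at 130.5, 127 and 127 CPM in the control libraries, 49.3, 48.7 and 43.1 with IL-4, 73.4, 64.2 and 74.6 with IL-4/IL-6, 51.1, 54.1 and 56.3 with IL-13 and 69.8, 64.0 and 72.6 with IL-13/IL-6. Every control library was at or above 127 CPM and every other library at or below 74.6 CPM, with the IL-6 groups above the groups given IL-4 or IL-13 alone. *Rxra* fell with IL-4 (log2 fold change -1.45 ± 0.0774, adjusted p = 4.31e-11) and with IL-13 (-1.25 ± 0.0768, adjusted p = 3.59e-10), and IL-6 raised it by 0.59 ± 0.0774 over IL-4 (adjusted p = 8.14e-06) and 0.35 ± 0.0770 over IL-13 (adjusted p = 0.00212). *Ppargc1b*, which encodes the coactivator PGC-1β, was read at a low level: 4.59, 4.05 and 3.81 CPM in the control libraries, 5.51, 6.09 and 5.24 with IL-4, 7.66, 6.54 and 6.80 with IL-4/IL-6, 2.78, 3.04 and 3.50 with IL-13 and 3.99, 3.31 and 4.51 with IL-13/IL-6. IL-4/IL-6 held the highest libraries, IL-4 the next, and control overlapped IL-13/IL-6. *Ppargc1b* was higher with IL-4 by 0.43 ± 0.151 (adjusted p = 0.0175, 0.0621 without control replicate 3) and lower with IL-13 (-0.42 ± 0.161, adjusted p = 0.0342, lost in 6 of 12 alternatives). The direct comparison of IL-4 with IL-13 gave 0.85 ± 0.156 (adjusted p = 0.00118). With IL-6 the values were 0.32 ± 0.145 over IL-4 (adjusted p = 0.0923) and 0.34 ± 0.162 over IL-13 (adjusted p = 0.15), neither called. *Ppargc1a*, which encodes the related coactivator PGC-1α, was at 0.259 to 0.483 CPM (group means) and was not tested.

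**Figure D2:**
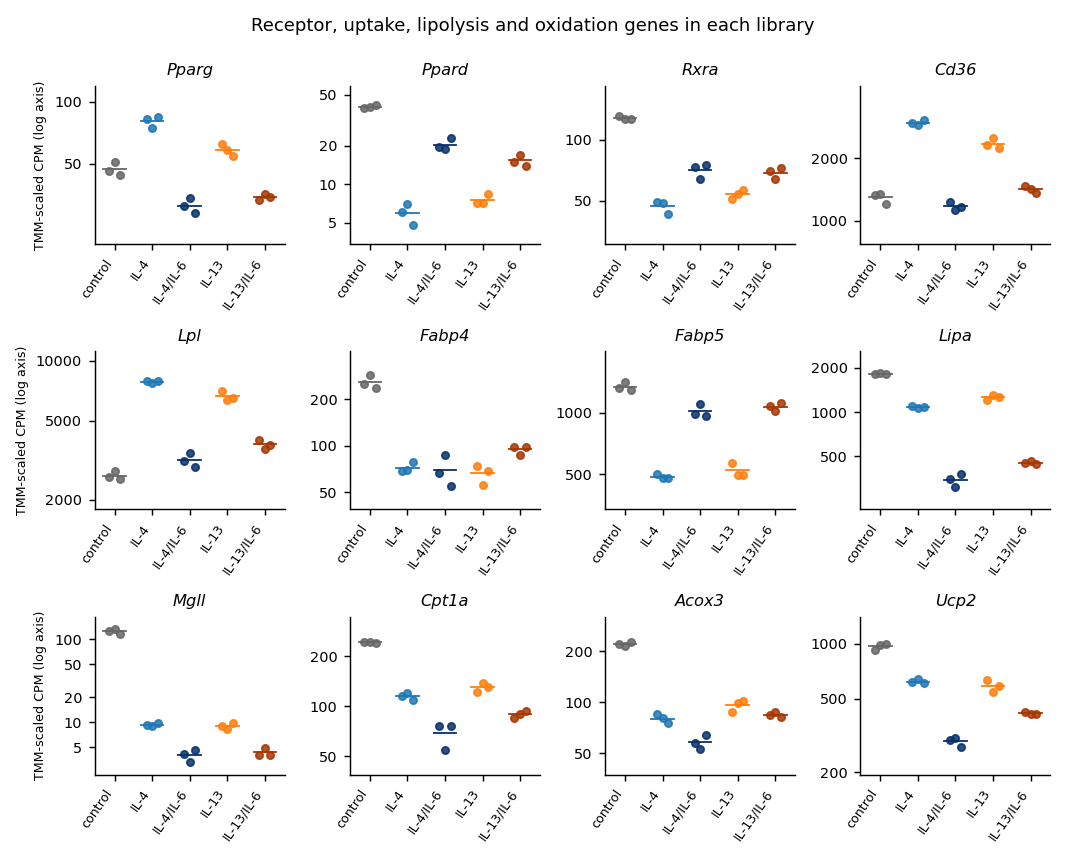
TMM-scaled CPM (log axis) of 12 members in each of the 15 libraries, with the mean of each group as a line. *Pparg*, *Cd36* and *Lpl* are highest with IL-4, *Ppard*, *Rxra*, *Mgll*, *Cpt1a* and *Acox3* are highest in control, and *Lipa* and *Ucp2* are lowest with IL-4/IL-6.

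Fatty acid capture and intracellular carriage moved apart: the 2 capture genes rose with IL-4 and IL-13, while both carriers and the lipase inhibitor *Angptl4* fell. *Cd36* (chr5:17781690-17888801, minus strand) encodes the receptor that takes up fatty acids and oxidized lipoprotein, and it was at 1324, 1349 and 1204 CPM in the control libraries, 2953, 2882 and 3058 with IL-4, 1230, 1121 and 1161 with IL-4/IL-6, 2305, 2497 and 2247 with IL-13 and 1464, 1424 and 1361 with IL-13/IL-6. All 6 libraries with IL-4 or IL-13 alone were at or above 2247 CPM, while the other 9 were at or below 1464 CPM. IL-4 raised it 2.29-fold (1.20 ± 0.0631, adjusted p = 3.62e-11) and IL-13 1.82-fold (0.86 ± 0.0627, adjusted p = 3.28e-09). With IL-6 as well, the level was below that of IL-4 (-1.34 ± 0.0634, adjusted p = 2.06e-11) and of IL-13 (-0.73 ± 0.0626, adjusted p = 8.8e-08). Against control, the IL-4/IL-6 level was lower (-0.14, adjusted p = 0.0485), and IL-13/IL-6 gave 0.13 without a call (adjusted p = 0.0734).

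*Lpl* (chr8:68880491-68907448, plus strand) encodes lipoprotein lipase, which splits triglycerides outside the cell. It was at 2605, 2780.4 and 2536 CPM in the control libraries, 7864, 7685 and 7880.4 with IL-4, 3135, 3444 and 2930.2 with IL-4/IL-6, 7064, 6363 and 6518 with IL-13 and 4018, 3606 and 3782 with IL-13/IL-6. The order of the groups was control, IL-4/IL-6, IL-13/IL-6, IL-13 and IL-4 from low to high, and no 2 of them overlapped. The rise was 2.96-fold with IL-4 (1.56 ± 0.0682, adjusted p = 3.22e-12) and 2.52-fold with IL-13 (1.33 ± 0.0678, adjusted p = 3.66e-11). IL-6 lowered it over IL-4 (log2 fold change -1.30 ± 0.0677, adjusted p = 6.87e-11) and over IL-13 (-0.81 ± 0.0670, adjusted p = 6.1e-08), and it stayed above control by 0.26 (adjusted p = 0.00195) and 0.53 (adjusted p = 2.68e-06). The inhibitor of this lipase, *Angptl4* (chr17:33773750-33781830, minus strand), is a well-known PPAR target and went the other way. It was at 17.1, 17.3 and 14.3 CPM in the control libraries, 2.35, 2.32 and 2.29 with IL-4, 0.907, 1.30 and 1.38 with IL-4/IL-6, 2.52, 1.30 and 2.01 with IL-13 and 0.810, 0.759 and 0.612 with IL-13/IL-6. Control libraries were at 14.3 CPM or more, and all others were at 2.52 CPM or less. *Angptl4* fell with IL-4 (log2 fold change -2.80 ± 0.182, adjusted p = 5.47e-10) and with IL-13 (-3.06 ± 0.186, adjusted p = 3.33e-10), and IL-6 lowered it further over IL-4 (log2 fold change -0.96 ± 0.239, adjusted p = 0.0038) and over IL-13 (-1.41 ± 0.266, adjusted p = 0.000594).

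The 2 carriers, *Fabp4* (the adipocyte and macrophage form) and *Fabp5* (the epidermal form), bind fatty acids inside the cell. *Fabp4* (chr3:10204088-10208576, minus strand) was at 253, 289 and 237 CPM in the control libraries, 68.7, 69.9 and 78.7 with IL-4, 67.3, 87.6 and 55.1 with IL-4/IL-6, 74.6, 55.8 and 69.0 with IL-13 and 98.2, 87.2 and 99.1 with IL-13/IL-6. The IL-4, IL-4/IL-6 and IL-13 libraries overlapped, those of IL-13/IL-6 lay above all IL-4 and IL-13 libraries, and control was far above all. *Fabp4* fell with IL-4 (log2 fold change -1.84 ± 0.138, adjusted p = 3.48e-09) and with IL-13 (-1.97 ± 0.139, adjusted p = 2.23e-09). IL-6 gave -0.05 ± 0.138 over IL-4 (adjusted p = 0.813), not called, and 0.51 ± 0.137 over IL-13 (adjusted p = 0.00965, 0.0609 without IL-13 replicate 2). *Fabp5* (chr3:10012548-10016607, plus strand) was at 1312, 1408 and 1294 CPM in the control libraries, 501, 478 and 483 with IL-4, 986, 1103 and 968 with IL-4/IL-6, 570.1, 498 and 499 with IL-13 and 1073, 1023 and 1109 with IL-13/IL-6. The 6 libraries with IL-4 or IL-13 alone were the lowest, the 2 IL-6 groups overlapped each other above them, and control was highest. *Fabp5* fell with IL-4 (log2 fold change -1.46 ± 0.0698, adjusted p = 1.09e-11) and with IL-13 (-1.36 ± 0.0696, adjusted p = 3.98e-11), and IL-6 raised it by 1.06 ± 0.0692 over IL-4 (adjusted p = 1.27e-09) and 1.03 ± 0.0691 over IL-13 (adjusted p = 3.88e-09). *Fabp5* shares sequence with pseudogenes, so part of its reads may be assigned to either.

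Of the 6 genes of lipolysis and droplet coats, 4 fell with IL-4 and with IL-13, and the other 2 were not called, where 35.9% and 31.1% of all genes were called lower. *Mgll* (chr6:88724412-88828360, plus strand), whose product monoacylglycerol lipase removes the last fatty acid of a triglyceride, had the largest fall from control of the 46 tested members. It was at 126, 132 and 114 CPM in the control libraries, 9.31, 8.91 and 9.71 with IL-4, 4.14, 3.30 and 4.61 with IL-4/IL-6, 8.94, 8.22 and 9.74 with IL-13 and 4.05, 4.94 and 4.01 with IL-13/IL-6. Control was at or above 114 CPM, the groups with IL-4 or IL-13 alone overlapped at 8.22 to 9.74 CPM, and the IL-6 groups were at or below 4.94 CPM. IL-4 lowered it to 0.0751 of control (-3.73 ± 0.105, adjusted p = 2.06e-14) and IL-13 to 0.0724 (-3.79 ± 0.105, adjusted p = 3.57e-14). IL-6 lowered it further over IL-4 (log2 fold change -1.21 ± 0.127, adjusted p = 5.64e-07) and over IL-13 (-1.05 ± 0.125, adjusted p = 4.96e-06).

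*Lipa* (chr19:34492318-34527474, minus strand) encodes lysosomal acid lipase, which frees fatty acids and cholesterol from lipids taken up into lysosomes. It was at 1805, 1834 and 1829 CPM in the control libraries, 1099, 1064 and 1086 with IL-4, 350.5, 309 and 381 with IL-4/IL-6, 1208, 1311 and 1259.9 with IL-13 and 452, 465 and 444 with IL-13/IL-6. The 5 groups did not overlap, with control highest and IL-4/IL-6 lowest. *Lipa* fell from control with IL-4 (-0.75 ± 0.0659, adjusted p = 2.64e-08) and with IL-13 (-0.53 ± 0.0657, adjusted p = 2.3e-06). IL-6 lowered it further, by a log2 fold change of -1.64 ± 0.0675 over IL-4 (adjusted p = 3.34e-12) and -1.47 ± 0.0670 over IL-13 (adjusted p = 2.77e-11). Against control, *Lipa* was at 0.190 of its level with IL-4/IL-6 and at 0.249 with IL-13/IL-6 (adjusted p = 8.08e-15 and 1.32e-13). *Pnpla2* (chr7:141455198-141460743, plus strand) encodes ATGL, which removes the first fatty acid from a stored triglyceride. It was at 141, 153 and 145 CPM in the control libraries, 55.5, 53.4 and 57.2 with IL-4, 62.6, 66.0 and 58.0 with IL-4/IL-6, 56.1, 54.2 and 55.4 with IL-13 and 47.7, 48.9 and 52.2 with IL-13/IL-6. Control libraries were at or above 141 CPM, and all others were between 47.7 and 66.0 CPM. *Pnpla2* fell with IL-4 (log2 fold change -1.40 ± 0.0663, adjusted p = 9.55e-12) and with IL-13 (-1.40 ± 0.0663, adjusted p = 1.44e-11), and no change was called on addition of IL-6 (0.17, adjusted p = 0.0561, and -0.16, adjusted p = 0.106). *Lipe*, the hormone-sensitive lipase that acts between the other two, had group means of 11.9 to 14.2 CPM and no call in any of the 4 comparisons. The droplet coat gene *Plin2* went from 1352 ± 20.1 CPM in control (SD, n = 3) to 905 ± 33.6 with IL-4 and 948 ± 82.8 with IL-13, and fell with IL-4 (log2 fold change -0.58 ± 0.0760, adjusted p = 3.67e-06) and with IL-13 (-0.51 ± 0.0760, adjusted p = 1.85e-05). *Plin3*, another coat protein, had means of 139 to 158 CPM and was not called in these comparisons.

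Among the 7 genes that activate fatty acids and carry them into mitochondria, *Cpt1a* fell and the acyl-CoA synthetases rose or had no large change. *Cpt1a* (chr19:3322334-3385733, plus strand) encodes the rate-limiting enzyme of mitochondrial import and was at 245, 244 and 241 CPM in the control libraries, 115, 119.8 and 109 with IL-4, 75.7, 54.7 and 76.3 with IL-4/IL-6, 121, 137 and 130.3 with IL-13 and 84.9, 89.1 and 93.8 with IL-13/IL-6. Control was highest, IL-13 and IL-4 followed without overlap, and the IL-6 groups were lowest, with replicate 2 of IL-4/IL-6 below the other 14 libraries. *Cpt1a* fell with IL-4 (log2 fold change -1.09 ± 0.0962, adjusted p = 2.99e-08) and with IL-13 (-0.91 ± 0.0958, adjusted p = 3.53e-07). IL-6 lowered *Cpt1a* over IL-4 (log2 fold change -0.73 ± 0.0977, adjusted p = 9.56e-06) and over IL-13 (-0.54 ± 0.0966, adjusted p = 0.000391). Without IL-4/IL-6 replicate 2 the first of these was -0.61 (adjusted p = 4.02e-07). *Cpt2* and *Slc25a20*, the later steps of the same shuttle, had group means of 24.8 to 28.9 CPM and 36.4 to 42.6 CPM, and neither was called in the 4 comparisons.

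The 4 acyl-CoA synthetases differed from each other. *Acsl5* rose from 93.2 ± 6.45 CPM in control to 146 ± 7.29 with IL-4 and 135 ± 8.47 with IL-13 (SD, n = 3), a change of 0.65 ± 0.0728 (adjusted p = 5.65e-07) and 0.54 ± 0.0727 (adjusted p = 6.44e-06). IL-6 raised *Acsl5* over IL-4 by 0.26 ± 0.0719 (adjusted p = 0.00799), a call lost under upper-quartile scaling, with only the libraries compared, and without IL-4 replicate 1 or IL-4 replicate 2 (adjusted p of up to 0.0713). Over IL-13 the value was 0.17 (adjusted p = 0.0949), not called except without IL-13 replicate 1 (adjusted p = 0.0432). The exons of *Acsl5* overlap those of *Zdhhc6* on the other strand, which held up to 1261 counts in a library, and whether the counting used strand is not given in the sources used here. *Acsl3*, the form found on lipid droplets, was at 21.9, 24.3 and 21.3 CPM in the control libraries, 28.0, 25.4 and 29.7 with IL-4, 27.8, 31.4 and 27.9 with IL-4/IL-6, 33.1, 31.8 and 32.3 with IL-13 and 50.7, 56.7 and 49.1 with IL-13/IL-6. IL-13/IL-6 stood above all other groups and control below them. The exons of *Acsl3* overlap those of *Utp14b* on the same strand, which held up to 335 counts in a library, so the share of reads that belongs to each is uncertain. *Acsl3* rose by 0.30 ± 0.0871 with IL-4 (adjusted p = 0.00567) and 0.53 ± 0.0865 with IL-13 (adjusted p = 5.48e-05), and IL-6 added 0.69 ± 0.0836 to IL-13 (adjusted p = 6.02e-06) but gave 0.07 ± 0.0861 with IL-4 (adjusted p = 0.585), not called. *Acsl1*, which channels fatty acids to both storage and oxidation, was at 62.0, 59.1 and 67.2 CPM in the control libraries, 57.5, 53.3 and 51.7 with IL-4, 56.2, 46.3 and 59.1 with IL-4/IL-6, 56.7, 61.3 and 56.4 with IL-13 and 75.3, 80.4 and 84.3 with IL-13/IL-6. The IL-13/IL-6 libraries were above the other 12, which lay between 46.3 and 67.2 CPM. IL-6 raised *Acsl1* over IL-13 by 0.46 ± 0.0867 (adjusted p = 0.000581), the value over IL-4 was -0.01 (adjusted p = 0.963), and its call in IL-4 over control (-0.21, adjusted p = 0.0395) was lost in 7 of 12 alternatives. *Acsl4*, which prefers arachidonic acid, rose on addition of IL-6 to IL-4 by 0.27 ± 0.0780 (adjusted p = 0.0114, lost in 5 of 12 alternatives) and to IL-13 by 0.37 ± 0.0774 (adjusted p = 0.00141).

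The genes of β-oxidation changed mostly by small amounts. Of the 17, 5 were called higher and 8 lower with IL-4, 2 higher and 9 lower with IL-13, 2 higher and 4 lower when IL-6 joined IL-4, and 2 higher and 2 lower when it joined IL-13. Of all genes, 32.1% and 35.9%, 29.0% and 31.1%, 20.7% and 18.7%, and 12.1% and 13.5% were called higher and lower in these comparisons. The median log2 fold change of these genes was -0.21 with IL-4 and -0.30 with IL-13 (all tested genes -0.05 and -0.02), and 0.04 and -0.08 on addition of IL-6 (all tested genes 0.04 and 0.01). In these 4 comparisons *Acox3* and *Eci1* were the 2 of the 17 that passed 1 in size. *Acox3* (chr5:35583040-35615352, plus strand), a peroxisomal oxidase of branched-chain acyl-CoA, was at 220.0, 215 and 226 CPM in the control libraries, 84.6, 80.0 and 74.8 with IL-4, 57.0, 52.9 and 63.6 with IL-4/IL-6, 87.7, 99.3 and 102 with IL-13 and 83.4, 87.8 and 81.4 with IL-13/IL-6. Control was at or above 215 CPM, and the other 12 libraries were between 52.9 and 102 CPM. It fell with IL-4 (log2 fold change -1.47 ± 0.0774, adjusted p = 3.68e-11) and with IL-13 (-1.20 ± 0.0766, adjusted p = 6.28e-10). It was lower with IL-4/IL-6 than with IL-4 (-0.46 ± 0.0781, adjusted p = 0.000119), and was not called in IL-13/IL-6 over IL-13 (-0.19, adjusted p = 0.0797). *Eci1* (chr17:24426641-24439348, plus strand), an isomerase needed for unsaturated fatty acids, was at 15, 14.5 and 14 CPM in the control libraries, 26.8, 30.7 and 31.3 with IL-4, 40.7, 43.4 and 33.2 with IL-4/IL-6, 27.3, 23.8 and 23.4 with IL-13 and 25.2, 27.4 and 30.2 with IL-13/IL-6. Control was the lowest group and IL-4/IL-6 the highest, with the other 3 groups overlapping. *Eci1* rose by 1.03 ± 0.110 with IL-4 (adjusted p = 3.19e-07), 0.78 ± 0.111 with IL-13 (adjusted p = 1.21e-05) and a further 0.40 ± 0.104 with IL-4/IL-6 (adjusted p = 0.00506).

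Of the acyl-CoA dehydrogenases, which take the first step by chain length, *Acadl* fell with IL-4 (log2 fold change -0.27 ± 0.0748, adjusted p = 0.00481), with IL-13 (-0.35 ± 0.0749, adjusted p = 0.000715) and when IL-6 joined IL-4 (-0.26 ± 0.0754, adjusted p = 0.00988). *Acadm* was higher with IL-4 by 0.21 ± 0.0728 (adjusted p = 0.0186, 0.0544 without control replicate 3). The calls of *Acadvl* (-0.21, adjusted p = 0.0322) and *Acads* (-0.21, adjusted p = 0.047) in IL-4 over control were each lost in 7 of 12 alternatives. The 2 chains of the trifunctional protein, which does the later steps for long chains, are encoded by *Hadha* and *Hadhb*. *Hadha* fell with IL-4 (-0.38 ± 0.0614, adjusted p = 3.35e-05), and *Hadhb* was at -0.16 ± 0.0736 (adjusted p = 0.0591). With IL-13 the values were -0.48 ± 0.0615 for *Hadha* (adjusted p = 3.76e-06) and -0.37 ± 0.0739 for *Hadhb* (adjusted p = 0.000395), and neither was called on addition of IL-6. *Hadh*, the short-chain dehydrogenase, rose with IL-4 by 0.30 ± 0.0678 (adjusted p = 0.000952) and fell when IL-6 joined IL-4 (-0.23 ± 0.0678, adjusted p = 0.0123). *Decr1*, which reduces double bonds, rose with IL-4 by 0.44 ± 0.103 (adjusted p = 0.00121). The thiolase *Acaa2*, which releases acetyl-CoA in the last step, was at -0.19 ± 0.0839 with IL-4 (adjusted p = 0.0515), at -0.42 ± 0.0843 with IL-13 (adjusted p = 0.000423) and at -0.44 ± 0.0854 when IL-6 joined IL-4 (adjusted p = 0.000519). *Echs1*, the hydratase, fell with IL-4 (-0.30 ± 0.0829, adjusted p = 0.00411). *Eci2*, a second isomerase, rose by 0.48 ± 0.0962 when IL-6 joined IL-4 (adjusted p = 0.00065). The electron carrier genes split, with *Etfa* higher with IL-4 by 0.36 ± 0.0916 (adjusted p = 0.00216) and *Etfdh* lower (-0.33 ± 0.0791, adjusted p = 0.00133). With IL-13, *Acads* (-0.38, adjusted p = 0.0017), *Echs1* (-0.38, adjusted p = 0.000766) and *Etfdh* (-0.41, adjusted p = 0.000259) were lower as well. The 4 calls in IL-13/IL-6 over IL-13 were small and lost in 5 to 7 of 12 alternatives each: *Acadl* at -0.22 (adjusted p = 0.0378), *Acaa2* at -0.25 (adjusted p = 0.0425), *Acaa1a* at 0.28 (adjusted p = 0.0239) and *Eci2* at 0.30 (adjusted p = 0.0303). *Etfb* had at most 15 counts in a library and no call, and it shares 626 bases at 99.7% identity with *Gm45233* on the same strand, so its reads are uncertain. The peroxisomal thiolase *Acaa1a* (-0.27 with IL-4, adjusted p = 0.0112, lost in 3 of 12 alternatives) shares 307 bases at 98.7% identity with *Acaa1b* and overlaps *Myd88* on the other strand, and *Acadvl*, *Echs1* and *Etfdh* overlap genes of the other strand, so their counts are uncertain to that extent.

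Synthesis and esterification held both falls and rises. *Dgat1* and *Dgat2* encode the 2 enzymes that close a triglyceride. *Dgat1* went from 29.5 ± 0.521 CPM in control to 15.3 ± 2.14 with IL-4 and 15.1 ± 1.88 with IL-13 (SD, n = 3), and fell with IL-4 (log2 fold change -0.95 ± 0.109, adjusted p = 7.46e-07) and with IL-13 (-0.97 ± 0.109, adjusted p = 7.59e-07). *Dgat2* (chr7:99153658-99182719, minus strand) was low, at 3.39, 2.88 and 2.19 CPM in the control libraries, 1.23, 0.443 and 0.928 with IL-4, 1.81, 1.53 and 1.73 with IL-4/IL-6, 0.750, 0.845 and 1.03 with IL-13 and 0.521, 0.868 and 1.39 with IL-13/IL-6. Control was the highest group, and the IL-4, IL-13 and IL-13/IL-6 libraries overlapped at 0.443 to 1.39 CPM. It fell with IL-4 (log2 fold change -1.69 ± 0.333, adjusted p = 0.000264) and with IL-13 (-1.68 ± 0.332, adjusted p = 0.000332), and its rise of 0.95 ± 0.353 with IL-4/IL-6 (adjusted p = 0.0408) was lost in 8 of 11 alternatives.

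The desaturase *Scd1* (chr19:44394455-44407879, minus strand), which makes oleate from stearate, moved in opposite directions when IL-6 was added to IL-4 and to IL-13. It was at 10.6, 11.7 and 12.6 CPM in the control libraries, 11.9, 10.7 and 9.28 with IL-4, 3.29, 3.95 and 5.70 with IL-4/IL-6, 10.4, 14.6 and 14.9 with IL-13 and 16.4, 23.2 and 20.0 with IL-13/IL-6. The 3 IL-4/IL-6 libraries were the lowest of the 15 and the 3 IL-13/IL-6 libraries the highest, while control, IL-4 and IL-13 overlapped. IL-6 lowered *Scd1* on top of IL-4 (log2 fold change -1.30 ± 0.200, adjusted p = 4.61e-05) and raised it on top of IL-13 (0.58 ± 0.172, adjusted p = 0.0191). The second call rests on few libraries: its adjusted p was 0.106 without IL-13/IL-6 replicate 2, 0.0559 without IL-13/IL-6 replicate 3, and it was also lost without IL-13 replicate 1. IL-4 and IL-13 alone gave -0.13 (adjusted p = 0.534) and 0.19 (adjusted p = 0.358) over control, not called. Its relative *Scd2*, the form of brain and growing tissue, was at 250.2, 245 and 244 CPM in the control libraries, 366, 289 and 334 with IL-4, 182, 279 and 321 with IL-4/IL-6, 203, 313 and 292 with IL-13 and 400.3, 561 and 386 with IL-13/IL-6. IL-13/IL-6 was the highest group, and within IL-4/IL-6 and IL-13 replicate 1 was far below the other 2 libraries. IL-6 raised *Scd2* over IL-13 by 0.74 ± 0.186 (adjusted p = 0.00641), and the change over IL-4 was -0.34 ± 0.185 (adjusted p = 0.161, 0.0289 without IL-4/IL-6 replicate 3).

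*Fasn*, which encodes fatty acid synthase, was at 130.1, 118 and 118 CPM in the control libraries, 182, 181 and 157 with IL-4, 329.5, 202 and 365 with IL-4/IL-6, 159, 191 and 207 with IL-13 and 283, 333 and 301 with IL-13/IL-6. Every library of the cytokine groups was above every control library, and IL-4/IL-6 replicate 2 was far below the other 2 of its group. *Fasn* rose by 0.50 ± 0.156 with IL-4 (adjusted p = 0.00889) and 0.61 ± 0.156 with IL-13 (adjusted p = 0.003), and by a further 0.79 ± 0.155 (adjusted p = 0.000543) and 0.72 ± 0.155 (adjusted p = 0.00198) when IL-6 was added. Without IL-4/IL-6 replicate 2 the change over IL-4 was 0.99 (adjusted p = 8e-08). *Acaca*, which supplies malonyl-CoA to fatty acid synthase, had means of 45.7 to 51.8 CPM and no call in the 4 comparisons. Pseudogenes share sequence with *Acaca*, *Hadhb* and *Fabp5*.

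**Figure D3:**
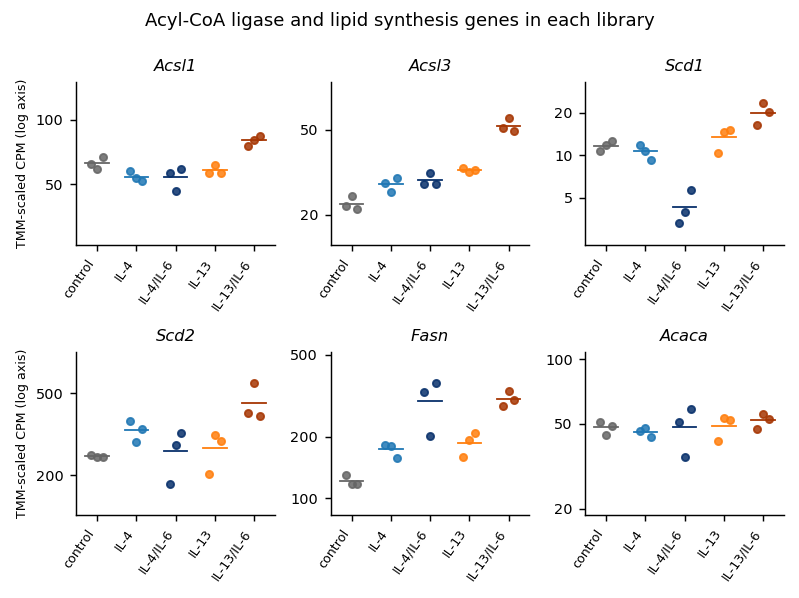
TMM-scaled CPM (log axis) of 2 acyl-CoA synthetase and 4 lipid synthesis genes in each of the 15 libraries, with the mean of each group as a line. *Scd1* is lowest with IL-4/IL-6 and highest with IL-13/IL-6, *Acsl1* and *Acsl3* are highest with IL-13/IL-6, and *Fasn* is above control in all 12 cytokine libraries.

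*Ucp2* (chr7:100493337-100502020, plus strand) encodes an uncoupling protein of the inner mitochondrial membrane that is abundant in macrophages. It was at 926, 979 and 992 CPM in the control libraries, 615, 638 and 612 with IL-4, 299.6, 307 and 274 with IL-4/IL-6, 633, 548 and 590.3 with IL-13 and 422, 413 and 416 with IL-13/IL-6. Control was highest, the groups with IL-4 and IL-13 alone overlapped, and IL-4/IL-6 was the lowest, below IL-13/IL-6. *Ucp2* fell with IL-4 (log2 fold change -0.64 ± 0.0625, adjusted p = 1.13e-07) and with IL-13 (-0.71 ± 0.0626, adjusted p = 3.87e-08), and IL-6 lowered it over IL-4 (log2 fold change -1.08 ± 0.0633, adjusted p = 3.31e-10) and over IL-13 (-0.50 ± 0.0626, adjusted p = 8.31e-06). Its exons overlap *Dnajb13* on the other strand, which held up to 193 counts in a library.

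The effect of IL-6 was tested for a difference between IL-4 and IL-13 with an interaction contrast of the same edgeR fit. It was called for 10 of the 46 members, 2 higher and 8 lower with IL-4 than with IL-13, beside 3.22% and 4.42% of all genes. Past 1 in size were 0 higher and 2 lower (0.796% and 1.08% of all genes). The largest differences were in the desaturases, with -1.88 ± 0.264 for *Scd1* (adjusted p = 0.000171) and -1.08 ± 0.263 for *Scd2* (adjusted p = 0.0154). *Pparg* (-0.59 ± 0.115, adjusted p = 0.00292), *Cd36* (-0.61 ± 0.0882, adjusted p = 0.000219), *Lpl* (-0.49 ± 0.0943, adjusted p = 0.00252) and *Ucp2* (-0.58 ± 0.0885, adjusted p = 0.000352) fell with IL-6 under both cytokines and fell more with IL-4. *Ppard* rose under both and rose more with IL-4 (0.76 ± 0.182, adjusted p = 0.0146). This call was lost without IL-4 replicate 3, IL-13 replicate 3 or IL-13/IL-6 replicate 3, with an adjusted p of up to 0.0578. *Acsl3* (-0.62 ± 0.120, adjusted p = 0.00278) and *Acsl1* (-0.47 ± 0.123, adjusted p = 0.0252, lost in 5 of 18 alternatives) rose with IL-6 in IL-13 libraries and were not called in IL-4 libraries. The small difference in *Pnpla2* (0.32 ± 0.0945, adjusted p = 0.0457) was lost in 15 of 18 alternatives. Of the 17 β-oxidation genes, 0 were called in this contrast by edgeR and 0 by DESeq2, with 1 (*Acox3*) at an unadjusted p under 0.05 in edgeR.

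**Figure D4:**
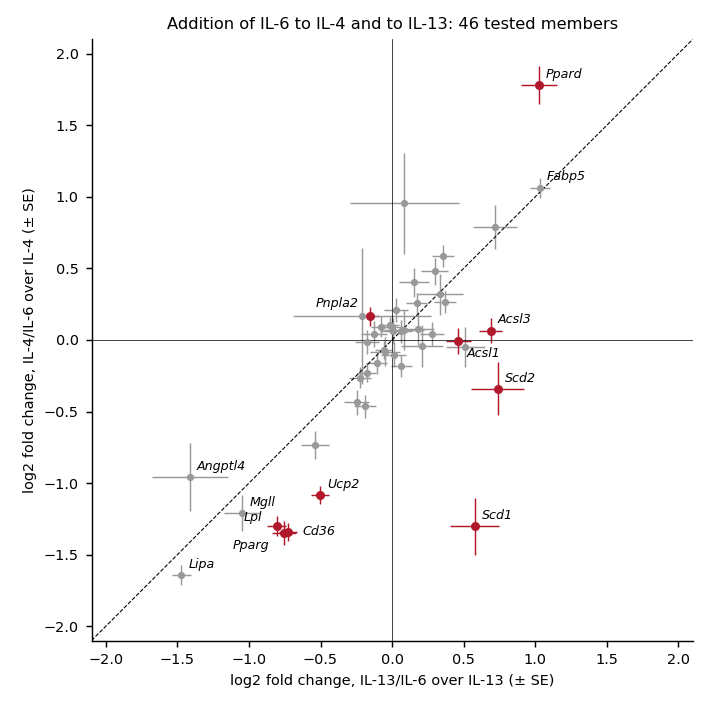
Log2 fold change (± SE, 3 libraries per group) of the 46 tested members on addition of IL-6 to IL-4 (vertical) against IL-13 (horizontal); the dashed line marks equal change, and red points have a called difference between the 2 effects. *Pparg*, *Cd36*, *Lpl* and *Ucp2* lie below the line at negative values, and *Scd1* lies at -1.30 and 0.58.

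IL-4 and IL-13 themselves differed in few members: IL-4 over IL-13 gave 4 members higher, 3 lower and 39 without a call, beside 5.16% and 7.61% of all genes, and upper-quartile scaling gave 6 and 2. The higher ones were *Pparg*, *Ppargc1b*, *Cd36* (0.34, adjusted p = 0.0013) and *Lpl* (0.23, adjusted p = 0.029), a receptor, a coactivator and both capture genes. *Lipa* (-0.22, adjusted p = 0.037), *Acsl4* (-0.30, adjusted p = 0.0148) and *Acox3* (-0.27, adjusted p = 0.0281) were lower. These 7 differences were all under 1 in size, which 1.05% of all genes exceeded upward and 1.06% downward, the doses were 10 ng/ml for IL-4 and 40 ng/ml for IL-13, and cytokine and dose cannot be told apart. The count of higher members was 3 to 9 and that of lower members 0 to 3 when 1 library was left out. The 9 came without IL-13 replicate 1, and the 0 without IL-4 replicate 2, IL-4 replicate 3, IL-13 replicate 2 or IL-13 replicate 3.

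Against control, IL-4/IL-6 gave 11 members higher, 26 lower and 9 without a call (35.4% and 37.5% of all genes), of which 2 and 9 were past 1 in size (13.1% and 19.9%), with a median log2 fold change of -0.23 (all tested genes -0.05). IL-13/IL-6 gave 9 higher, 22 lower and 15 without a call (31.9% and 32.1%), of which 2 and 10 were past 1 in size (9.13% and 15.3%), with a median of -0.12 (all tested genes -0.01). Both use the control libraries of the comparisons above. *Fasn* was above control by 1.29 ± 0.157 and 1.32 ± 0.158 in them (adjusted p = 1.17e-06 and 1.21e-06), *Eci1* by 1.43 with IL-4/IL-6 (adjusted p = 3.11e-09) and *Acsl3* by 1.21 with IL-13/IL-6 (adjusted p = 1.59e-09). At the other end, *Mgll* was at -4.95 and -4.84, and *Angptl4* at -3.76 and -4.47.

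In FPKM, the level of the members spanned a wide range. In control the highest were *Lipa* (641 ± 4.35, SD, n = 3), *Plin2* (402 ± 5.33), *Fabp5* (392 ± 14.6), *Cd36* (376 ± 20.9) and *Lpl* (263 ± 10.4), where *Plin2*, *Fabp5* and *Cd36* lay close together. With IL-4 the order changed to *Cd36* (835 ± 21.2), *Lpl* (754 ± 7.55), *Lipa* (369 ± 5.12) and *Plin2* (260.5 ± 8.49). With IL-4/IL-6 *Cd36* (308 ± 25.1) and *Lpl* (285 ± 10.8) overlapped within their SD, and *Lipa* was at 111 ± 16.2. The β-oxidation genes ran from 0.391 ± 0.177 (*Etfb*) to 60.5 ± 1.73 (*Acadl*) in control, and *Ppargc1b* was at 1.09 ± 0.107. The length behind the FPKM differed much between genes, from 1091 bases for *Eci1* to 17074 bases for *Acaca*. For *Fabp4* it was 4489 bases, the whole annotated span of the gene from start to end, and for *Fabp5* 3567 bases. These lengths are not those of a single mRNA in every gene, so the order of different genes by FPKM is uncertain.

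Other genes of these pathways, 121 in 3 lists that hold no member, were counted in the same fit, and 91 of them were tested. Of the 39 tested oxidation genes, 6 were higher and 19 lower with IL-4, 2 higher and 18 lower with IL-13, 11 higher and 5 lower when IL-6 joined IL-4, and 8 higher and 5 lower when it joined IL-13. Of the 32 tested genes of droplets, uptake and synthesis, the counts were 9 and 12, 13 and 11, 14 and 4, and 10 and 3 in the same order. The 20 tested genes of the list named for PPARs and other nuclear receptors gave 3 and 10, 3 and 9, 5 and 3, and 4 and 4. That list also holds genes that do not encode receptors, such as *Tgm2*, *Hmox1* and *Adipoq*. Called higher and lower among all genes in that order were 32.1% and 35.9%, 29.0% and 31.1%, 20.7% and 18.7%, and 12.1% and 13.5%. The median log2 fold change of the oxidation genes was -0.34 with IL-4 and -0.30 with IL-13, beside -0.05 and -0.02 for all tested genes. It was -0.01 and 0.06 for droplets, uptake and synthesis, and -0.30 and -0.22 for the PPAR and nuclear receptor list. On addition of IL-6 to IL-4 and to IL-13, the medians of the 3 lists in that order were 0.05 and 0.04, 0.18 and 0.13, and 0.05 and 0.10 (all tested genes 0.04 and 0.01).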

How the data were processed

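Gene counts and FPKM of mouse BMDMs, 3 libraries in each of 5 groups, were used as the authors deposited them. The submitters' processing notes name CASAVA, Bowtie2 2.2.3, HISAT2 2.1.0, TopHat2, DESeq2 and GRCm38. The counting tool and its strand setting are not given in the sources used here. The deposited counts are raw, and the deposited FPKM equal the count divided by gene length and by the library total: over 268061 values the implied length of a gene varied between libraries by at most 7.35e-07 of itself. Rows without a gene held 0% of the counts.

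Counts were analysed with edgeR 4.0.16 (R 4.3.3). Genes were kept with filterByExpr at a minimum count of 10, scaled with TMM, and all 15 libraries were fitted in 1 quasi-likelihood model. The 7 comparisons between groups and the difference between the 2 effects of IL-6 were tested 2-sided, p-values were adjusted over all 13938 genes by Benjamini-Hochberg, and a call means an adjusted p under 0.05. Fold changes are printed as log2 values with their SE. CPM are counts scaled to the TMM-adjusted library total. Members and lists were chosen with earlier results of these data known. By the rule for named genes, values in every library are given for *Pparg*, *Ppargc1b*, *Cd36*, *Cpt1a* and the members called with a log2 fold change of 1 or more in size in 1 of the 4 main comparisons, and of each other pathway list the 3 genes with the largest called change are named, except that some items are not reported here. Library values of *Acsl1*, *Acsl3*, *Scd2* and *Fasn* are given as well, chosen after their values were seen.

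On simulated counts for IL-4 over control (13938 genes, seeded), edgeR called 80 of 100 genes changed by 1 on the log2 scale, 92 of 100 changed by 2, and 9 others. Alternatives were DESeq2 1.42.0, upper-quartile scaling, no filter, a minimum count of 50, only the libraries compared, the replicate number as a block, a fold rule, and each library left out in turn. Promoters were taken from RefSeq (GRCm38.p6). The precision rests on 17001352 to 18918686 counts per library.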

Additional observations from a re-analysis of the deposited data

Results flagged for a closer look

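For 10 members the effect of IL-6 differed between IL-4 and IL-13 by the interaction contrast (edgeR, adjusted p under 0.05). Of all genes, 3.22% were called higher and 4.42% lower in this contrast. The difference, as the log2 effect with IL-4 minus the log2 effect with IL-13, was -0.59 for *Pparg*, -0.61 for *Cd36*, -0.49 for *Lpl* and -0.58 for *Ucp2*. It was 0.76 for *Ppard* and 0.32 for *Pnpla2*. It was -0.47 for *Acsl1* and -0.62 for *Acsl3*, and -1.88 for *Scd1* and -1.08 for *Scd2*. The calls of *Pnpla2*, *Acsl1* and *Ppard* were lost in 15, 5 and 3 of 18 alternatives. IL-4 and IL-13 were given at 10 and 40 ng/ml, so cytokine and dose cannot be told apart in these differences. The libraries of IL-4/IL-6 had the largest spread of the 5 groups, and its part in these differences was not tested beyond leaving out each library in turn.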

How the results depend on the processing

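In both comparisons of a single cytokine with control, both additions of IL-6 and the difference between the effects of IL-6, every member kept its direction wherever it was called, under DESeq2, upper-quartile scaling, no filter, a minimum count of 50, only the libraries compared, the replicate block and each library left out. In the other 3 comparisons the alternatives were run for the counts of members alone. Of the results recomputed with 1 library left out, 1558 kept their side of the threshold, 81 lost the call and 17 gained it. Under DESeq2 these were 225, 1 and 4, under upper-quartile scaling 214, 9 and 7. The counts of members called higher and lower with 1 library left out were 10 to 13 and 18 to 20 with IL-4 against control, 7 to 9 and 22 to 23 with IL-13 against control, 6 to 9 and 13 to 15 on addition of IL-6 to IL-4, and 9 to 12 and 8 to 10 on its addition to IL-13. They were 10 to 11 and 22 to 24 with IL-4/IL-6 against control, 9 to 10 and 22 with IL-13/IL-6 against control, 3 to 9 and 0 to 3 for IL-4 over IL-13, and 0 to 2 and 7 to 11 for the difference between the effects of IL-6. With a log2 fold change over 1 in size required as well, which by construction keeps fewer genes, the counts in the same order were 3 and 10, 1 and 9, 2 and 7, 2 and 3, 2 and 9, 2 and 10, 0 and 0, and 0 and 2. The difference between the effects of IL-6 was called higher for 1 member under upper-quartile scaling, no filter, only the libraries compared and the replicate block. With the replicate number as a block, the counts were 13 and 22, 8 and 23, 8 and 13, 12 and 8, 11 and 24, 9 and 22, 4 and 2, and 1 and 8. Over 30 pairs of libraries with the same number the correlation of deviations from the group means was -0.276 to 0.163 (median -0.008), 3 pairs were over 0.1, and 2 of 15 libraries deviated most like their own number. By this measure the numbers showed no pairing. It cannot tell whether libraries of the same number shared mice or cultures, which the labels do not say. Calls lost in most alternatives were those of *Acsl1*, *Acadvl* and *Acads* in IL-4 over control, *Acsl4* in IL-13 over control, *Dgat2* on addition of IL-6 to IL-4 and *Acaa2* on its addition to IL-13, and that of *Pnpla2* in the difference between the effects of IL-6, and the cause was not tested. *Ppara* and *Ppargc1a* had too few counts to be tested at this depth.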

Other observations

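Outside the members, genes of the other pathway lists were named by size of change for IL-4 against control and for the addition of IL-6 to IL-4. For IL-13 against control, 6 of the 91 tested were called higher and 14 lower with a log2 fold change over 1 in size (7.74% and 12.6% of all genes). When IL-6 joined IL-13 these were 3 and 2 (3.06% and 4.19% of all genes). The genes of these 2 comparisons are given as counts alone. In the list named for PPAR and nuclear receptor genes, which also holds genes that do not encode receptors, *Tgm2*, which encodes transglutaminase 2, fell with IL-4 (log2 fold change -1.70 ± 0.0967, edgeR adjusted p = 9.8e-11). *Nr1h3*, which encodes the oxysterol receptor LXRα, fell with IL-4 (-1.34 ± 0.117, adjusted p = 2.48e-08) and was lower with IL-4/IL-6 than with IL-4 (-1.37 ± 0.132, adjusted p = 1.91e-07). *Nrip1*, which encodes a corepressor of nuclear receptors, fell with IL-4 (-1.29 ± 0.132, adjusted p = 1.86e-07). *Hmox1*, which encodes heme oxygenase 1, went from 561 ± 27.5 CPM with IL-4 to 1979 ± 214 with IL-4/IL-6 (SD, n = 3), a rise of 1.82 ± 0.0875 (adjusted p = 2.51e-11). *Adipoq*, the adiponectin gene, was called higher with IL-4/IL-6 (adjusted p = 0.0089) at no more than 19 counts in a library.

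Among genes of droplets, uptake and synthesis, *Mogat2*, an acyltransferase of triglyceride synthesis, had 2.01 ± 0.574 CPM in control and at most 1 count in any IL-4 library (adjusted p = 1.27e-05). *Vldlr*, a receptor for triglyceride-rich lipoprotein, went from 3.03 ± 0.310 CPM in control to 0.145 ± 0.126 with IL-4 (adjusted p = 4.73e-06), where no library had more than 4 counts. *Elovl7*, a fatty acid elongase, fell with IL-4 (-2.68 ± 0.357, adjusted p = 4.41e-06). When IL-6 joined IL-4, *Gpat3* (1.58 ± 0.417, adjusted p = 0.00575) and *Fads3* (1.30 ± 0.148, adjusted p = 1.48e-06) rose and the desaturase *Fads2* fell (-1.39 ± 0.105, adjusted p = 8.95e-09). Among other oxidation genes, the thioesterase *Acot1* fell with IL-4 (-2.49 ± 0.209, adjusted p = 1.55e-08) and was lower with IL-4/IL-6 than with IL-4 (-2.08 ± 0.326, adjusted p = 5.5e-05). *Acss2*, an acetyl-CoA synthetase, fell with IL-4 (-1.89 ± 0.203, adjusted p = 3.15e-07), and the thioesterase *Acot7* rose with IL-4 (1.59 ± 0.103, adjusted p = 5.16e-10). The peroxisomal transporter *Abcd2* fell when IL-6 joined IL-4, from 45.8 ± 1.97 to 10.6 ± 2.36 CPM (SD, n = 3, -2.11 ± 0.142, adjusted p = 1.96e-09).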
